A study of Mus musculus with 2 samples.

Results

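The genes of oxidative phosphorylation (OXPHOS) were followed in single cells of the adult mouse mammary epithelium. They were chosen by symbol, and 106 of the 27998 genes in the deposited tables met the rule. Of these, 13 were the protein-coding genes of the mitochondrial genome, whose symbols start with mt-. The other 93 were nuclear genes whose symbols start with Nduf, Uqcr, Atp5 or Cox4 to Cox8, together with the 4 Sdh genes and Cycs. The 2 samples analysed here were profiled by 10X Chromium 3′ RNA-seq, each as 1 library of untreated adult cells from pooled mice of the inbred FVB/NJ strain. One library held 4771 sorted basal cells (Lin–CD29hiCD24+) and the other held 3302 cells of the total epithelium (Lin–CD24+), where Lin– marks the removal of blood and endothelial cells. Both libraries share the strain, the age class and the capture method. Neither has a replicate.

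The mitochondrial respiratory chain passes electrons from NADH and succinate to oxygen through complexes I to IV, and the proton gradient it builds drives ATP synthase, also called complex V. Complex II is encoded wholly in the nucleus, whereas the other complexes combine nuclear subunits with a few core subunits made from the small circular mitochondrial genome. The mammary epithelium has an outer layer of contractile basal (myoepithelial) cells and an inner luminal layer. The luminal layer holds luminal progenitors (LP), which carry the milk-lineage factor Elf5 and the receptor Kit, and mature luminal (ML) cells, many of which express the oestrogen and progesterone receptors.

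The cells of the total epithelium were divided by their counts of unique molecular identifiers (UMIs), which count each captured RNA molecule once. Cells with 10 or more UMIs of Krt5, Krt14 and Acta2 were called basal (1306 cells). Of the other cells, those with 10 or more UMIs of Prlr, Stc2 and Gpx3 were called ML (1133 cells), and those with 3 or more of Krt8, Krt18 and Krt19 were called LP (766 cells). The LP class thus took any cell with these keratins that missed the ML cutoff, whatever its depth. Luminal cells between LP and ML, which the paper describes, had no class of their own. The remaining 97 cells stayed unclassed. Markers that the rule did not use went with the names. Csn3, a milk protein gene, stood at 6649 CPM (UMIs scaled to a total of 1000000 per class) in LP cells, 619 CPM in ML cells and 250 CPM in basal cells, and Kit at 49.6, 7.26 and 2.52 CPM. Cited1, a cofactor of the oestrogen receptor, stood at 1294 CPM in ML cells, 189 CPM in LP cells and 41.1 CPM in basal cells. Pgr stood at 56.9, 5.56 and 7.92 CPM in the same order. The immune markers Ptprc, Cd52 and Tyrobp had no UMI in any class or in the sorted library. Cd74, the other immune marker on the list, stood at 40.0 CPM in basal, 3.71 CPM in LP and 1.69 CPM in ML cells. In the sorted library it was at 14.1 CPM.

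The median cell held 1838.5 UMIs in the basal class, 2483.5 in LP and 3403 in ML, against 487 in the sorted basal library. The libraries shared 28 cell barcodes. In the total epithelium, 26 cells met both the basal and the ML rule and were kept as basal, and 174 basal cells also held 10 or more UMIs of luminal keratins. The summed fibroblast markers, mostly Dcn, were at 1419 CPM in ML, 363 CPM in basal and 83.4 CPM in LP cells. Since each class is a group of cells of 1 library, no class difference has a replicate check and no p-value is given. Intervals are exact 95% intervals that cover counting error only.

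Nuclear OXPHOS genes stood highest in ML cells. Their summed level was 13342 CPM (13207 to 13479) in basal cells, 12150 CPM (12004 to 12298) in LP cells and 18336 CPM (18206 to 18467) in ML cells, or 1.33%, 1.22% and 1.83% of all UMIs. ML cells were 1.51-fold above LP cells (log2 difference 0.59, 0.57 to 0.61) and 1.37-fold above basal cells (0.46, 0.44 to 0.48). LP and basal cells lay close together, with a log2 difference of −0.14 (−0.16 to −0.11). This last sign depended on the scaling, since it turned to 0.03 with TMM factors and 0.07 with the median of gene ratios.

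These differences have to be read against all genes, because the median gene was itself shifted between classes. Over all genes with a mean of 20 CPM or more, the median log2 difference was −0.17 for LP minus basal, 0.10 for ML minus basal and 0.30 for ML minus LP. Relative to that median, the summed nuclear OXPHOS level was 0.03 higher in LP than basal, 0.36 higher in ML than basal and 0.30 higher in ML than LP. The number of molecules per cell showed the same order as the depth of the classes. A basal cell held on average 28.4 nuclear OXPHOS UMIs, an LP cell 34.2 and an ML cell 66.9.

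**Figure D1:**
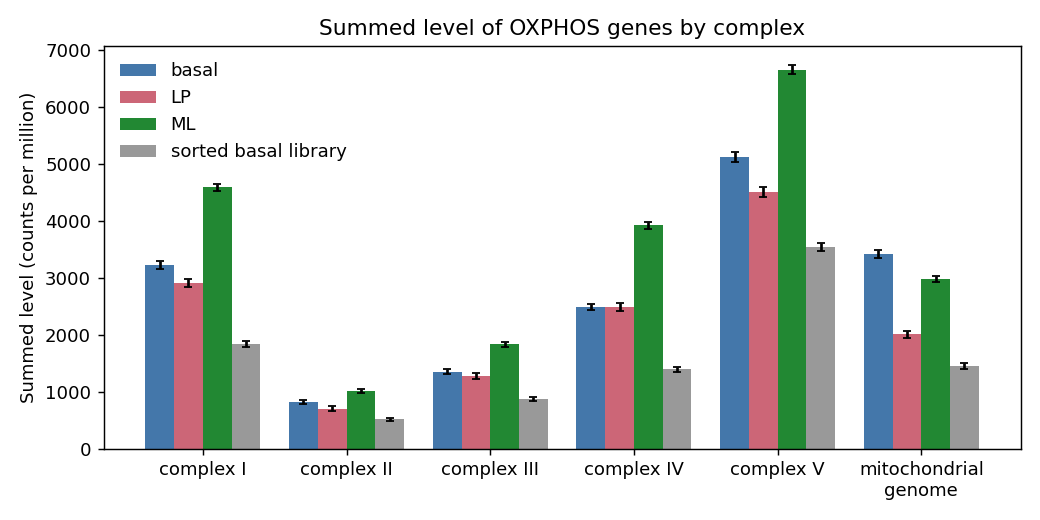
Summed level in CPM of the subunit genes of each complex and of the mitochondrial genome genes, in the 3 classes of the total epithelium and in the sorted basal library. Bars are the level of 1 group of cells and error bars are exact 95% Poisson intervals of the count. ML bars are the tallest for complexes I to V (complex V 6656 CPM), whereas basal cells hold the tallest mitochondrial genome bar (3422 CPM).

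The mitochondrial genome genes followed another order. Their summed level was 3422 CPM (3353 to 3491) in basal cells, 2005 CPM (1945 to 2065) in LP cells and 2977 CPM (2925 to 3030) in ML cells. LP cells were thus lowest, by 0.77 on the log2 scale below basal cells (interval −0.82 to −0.72), and the difference was −0.61 with TMM factors and −0.57 with the median of gene ratios. ML cells were below basal cells by a log2 difference of −0.20 (−0.24 to −0.16) and above LP cells by 0.57 (0.52 to 0.62). When every cell counted equally, ML minus basal was −0.07. For each mitochondrial UMI there were 3.90 nuclear OXPHOS UMIs in basal cells, 6.06 in LP cells and 6.16 in ML cells. This ratio needs no scaling, and it was lowest in the basal class as a whole. In the shallowest of 4 equal groups of each class it was nearly the same in basal (3.15, median 1177 UMIs) and LP cells (3.11, median 1261.5 UMIs). The sorted basal library had 5.75, near the values of the luminal classes.

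The same split held for the count of genes past a fold of 1.5, which was used in place of a test for genes with a mean of 20 CPM or more over the pair. Between ML and LP, 43 of 74 nuclear members were higher in ML and 0 were lower. Among all genes, 31.2% were higher and 14.2% lower. With TMM factors 23 members were higher in ML and 0 lower, and over all genes the calls went from 1614 higher and 736 lower to 1114 higher and 988 lower. Between ML and basal, 31 of 74 were higher in ML, where the background was 28.5%, and 1 was lower, where it was 24.9%. The nuclear members' median log2 difference was 0.65 for ML minus LP and 0.46 for ML minus basal, and 66 and 63 of 74 lay above the median of all genes.

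Between LP and basal, 0 of 72 nuclear members were higher in LP and 7 were lower, against 16.5% and 29.5% of all genes. Both shares lay under the background, and the members' median of −0.13 was near that of all genes. The 7 genes were Ndufa1, Ndufa11, Ndufa12, Ndufb6 and Ndufs1 of complex I, Uqcrc1 of complex III and Cox6c of complex IV. With TMM factors 4 members were higher and 3 lower, and over all genes the calls went from 880 higher and 1574 lower to 1155 higher and 1256 lower. Of the 6 mitochondrial genome genes above the filter, 5 were lower in LP than basal and 3 were higher in ML than LP, and 0 passed the fold between ML and basal.

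**Figure D2:**
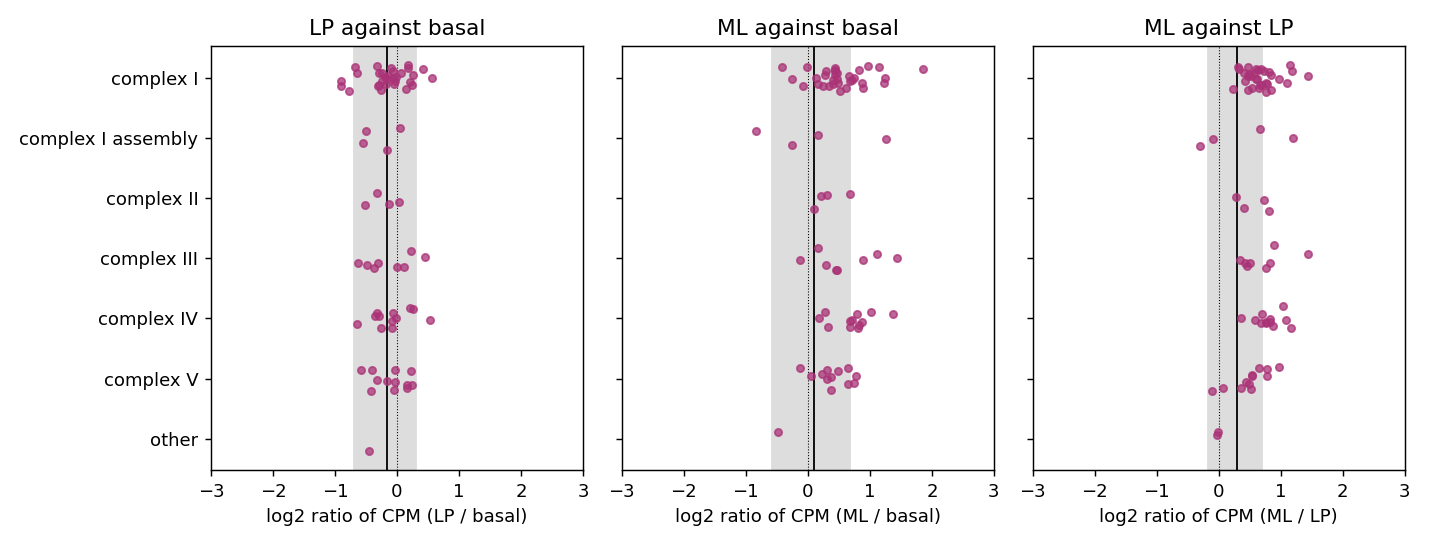
Log2 ratio of CPM for each nuclear member with a mean of 20 CPM or more over the pair (points, 1 gene each, spread vertically for view), by complex. The solid line is the median of all genes above the same filter, the grey band spans their middle 50%, and the dotted line marks no difference. Points of complexes I, III and IV lie right of the solid line in ML against basal and ML against LP with few exceptions, and lie around it in LP against basal, where the sign of the sum turns with the scaling.

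Complex I, the NADH dehydrogenase that feeds most electrons into the chain, was measured through 36 subunit genes. Its summed level was 3225 CPM in basal, 2911 CPM in LP and 4585 CPM in ML cells. ML exceeded LP by 0.66 (0.61 to 0.70) on the log2 scale, and 20 of 32 tested subunits passed the fold. All 32 had a log2 ratio above 0. Among all genes, 31.2% passed the fold and 67.9% had a log2 ratio above 0.

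Ndufa7, an accessory subunit (chr17:33824572-33838317, plus strand, mm10), had the ML minus basal and ML minus LP intervals farthest from 0 among nuclear members with a mean of 50 CPM or more. It stood at 43.6 CPM in basal, 58.4 CPM in LP and 158 CPM in ML cells, so that ML was higher by 1.86 (1.58 to 2.15) than basal and by 1.44 (1.16 to 1.73) than LP on the log2 scale. Drawn down to 1000 UMIs a cell, a UMI of Ndufa7 was present in 14.6% of the ML class, compared with 5.38% of the LP class and 3.43% of the basal class. Without drawing down the shares were 42.9%, 15.01% and 7.96%. The order was therefore the same at equal depth.

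Ndufs4, a late-assembled accessory subunit whose loss in mice gives a Leigh-like disease, was at 75.3 CPM in basal, 82.9 CPM in LP and 178 CPM in ML cells. Its ML minus basal difference was 1.24 (1.02 to 1.47). Ndufa13, also known as GRIM-19, stood at 43.9, 49.6 and 97.0 CPM, and Ndufv2, a subunit with an iron-sulphur cluster, at 176, 157 and 280 CPM. Ndufa6 alone among the complex I genes named for LP against basal was higher in LP, with 60.9 CPM in basal, 89.9 CPM in LP and 113 CPM in ML cells (LP minus basal 0.56, 0.26 to 0.87).

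Other complex I subunits went against the group. Ndufa11, a membrane-arm subunit, was at 81.8 CPM in basal, 43.5 CPM in LP and 61.5 CPM in ML cells, and its LP minus basal difference was −0.91 (−1.27 to −0.56). Ndufs1, the largest core subunit, stood at 76.7 CPM in basal, 44.9 CPM in LP and 64.4 CPM in ML cells (LP minus basal −0.77, −1.13 to −0.42). Both genes were thus highest in basal cells, by log2 differences from ML of −0.41 (ML minus basal, −0.68 to −0.15) and −0.25 (−0.52 to 0.01), and the second of these intervals includes 0.

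The assembly factors of complex I, which build it but are not part of the finished enzyme, did not share the ML excess over basal cells. The 7 genes summed to 170 CPM in basal, 131 CPM in LP and 186 CPM in ML cells, and the ML minus basal difference of 0.13 had an interval from −0.04 to 0.30. They split among themselves. Ndufaf3 was at 22.3 CPM in basal, 23.2 CPM in LP and 53.5 CPM in ML cells. Ndufaf4 was at 43.2, 29.6 and 24.2 CPM, the only tested nuclear member past the fold in the lower direction in ML against basal (−0.84, −1.23 to −0.44). Ndufaf7, a methyltransferase and the highest of the group, was at 40.0, 28.3 and 45.0 CPM.

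Complex II, succinate dehydrogenase, joins the citric acid cycle to the chain. Its 4 genes summed to 816 CPM in basal, 704 CPM in LP and 1015 CPM in ML cells. The subunits were unequal in their ML excess. Sdhd, a membrane anchor, was at 187 CPM in basal, 171 CPM in LP and 300.3 CPM in ML cells, a difference of 0.69 (0.54 to 0.84) between ML and basal. Sdhb, the iron-sulphur subunit, was at 330, 265 and 353 CPM, and its ML minus basal interval of −0.03 to 0.21 includes 0. Sdhc, the other membrane anchor, was at 119, 83.4 and 138 CPM and Sdha, the flavoprotein, at 180, 185 and 224 CPM.

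Complex III passes electrons to cytochrome c. Its 8 genes summed to 1346 CPM in basal, 1273 CPM in LP and 1834 CPM in ML cells. Uqcrfs1, the Rieske iron-sulphur protein, differed between all 3 classes, with 326 CPM in basal, 448 CPM in LP and 602 CPM in ML cells. Its LP minus basal difference was 0.46 (0.32 to 0.59) and its ML minus basal difference 0.88 (0.77 to 0.995). Uqcr11, a small subunit, stood at 38.5 CPM in both basal and LP cells and at 104 CPM in ML cells (ML minus LP 1.44, 1.10 to 1.80). Uqcrc1, a core subunit, ran the other way from Uqcrfs1 between LP and basal cells. It was at 461 CPM in basal, 296 CPM in LP and 421 CPM in ML cells, an LP minus basal difference of −0.64 (−0.77 to −0.50).

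Complex IV, cytochrome c oxidase, reduces oxygen to water. Of the 5 complexes its nuclear genes had the widest ML excess over basal cells, 0.66 (0.62 to 0.70), from 2487 CPM in basal and 2485 CPM in LP to 3922 CPM in ML cells. All 12 tested genes had a log2 ratio above 0 against both classes, as did 53.9% of all genes against basal and 67.9% against LP. Of the 12, 9 passed the fold against basal and 11 against LP (28.5% and 31.2% of all genes). Cox4i1, the regulatory subunit of highest level, stood at 839 CPM in basal, 968 CPM in LP and 1462 CPM in ML cells. At 1000 UMIs a cell, 77.7% of ML, 60.4% of LP and 54.9% of basal cells held a UMI of Cox4i1 (97.4%, 86.7% and 76.7% at full depth).

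Several small subunits of complex IV showed larger ratios. Cox7c was at 36.0 CPM in basal, 52.4 CPM in LP and 93.2 CPM in ML cells, but 99.2% of the 50-base words of its transcript's last 300 bases also occur in other annotated genes, so its count is uncertain. Cox8a was at 131, 107 and 239 CPM (ML minus LP 1.16, 0.96 to 1.38), and Cox5a at 168, 140 and 297 CPM. Cox6b1 was at 76.7, 92.2 and 156 CPM. In Cox7b the levels were 50.4, 40.3 and 82.5 CPM. All 5 genes were thus highest in ML cells. Cox6c, in contrast, was nearly level between basal (90.8 CPM) and ML cells (103 CPM) and was lower in LP cells (57.9 CPM).

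Complex V makes ATP. Its 15 genes summed to 5116 CPM in basal, 4512 CPM in LP and 6656 CPM in ML cells. The catalytic head did not move as one. Atp5b, the catalytic beta subunit (chr10:128083273-128090391, plus strand), stood at 1516 CPM in basal, 1143 CPM in LP and 1969 CPM in ML cells. Atp5a1, the alpha subunit that alternates with it in the head, stood at 922 CPM in basal, 617 CPM in LP and 842 CPM in ML cells. Both were lowest in LP, by −0.41 (−0.48 to −0.34) and −0.58 (−0.68 to −0.48) from basal. Against basal cells, ML was higher for Atp5b by 0.38 (0.32 to 0.43) and not for Atp5a1, where the difference was −0.13 (−0.20 to −0.06). Atp5c1, the gamma subunit of the rotor, instead ran upward through the classes with 585, 691 and 1007 CPM.

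The c-ring that protons turn is one protein encoded by a trio of genes. Atp5g1 was at 137 CPM in basal, 161 CPM in LP and 169 CPM in ML cells, and Atp5g3 at 99.8, 111 and 104 CPM. The ML minus LP intervals of Atp5g1 (−0.11 to 0.27) and Atp5g3 (−0.33 to 0.13) both include 0. Atp5g2 had 12 UMIs in all in the total epithelium, and 98.4% of the words of its 3′ end are shared with other genes. Cycs, cytochrome c itself, was highest in basal cells, with 139 CPM in basal, 101.5 CPM in LP and 99.45 CPM in ML cells (ML minus basal −0.48, −0.69 to −0.28).

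Promoter sequences are shown for 3 of these genes, a pair that stood highest in ML cells and 1 that stood highest in basal cells. Of the 93 nuclear members, 77 matched a RefSeq promoter of 250 bases before to 50 after the start, and these were searched on both strands for 4 motifs of factors known for OXPHOS promoters. The NRF1 motif GCGCATGCG was in 11 members (14.3%) and in 2.50% of all 16699 promoters. The YY1 motif AAGATGGCG was in 7 (9.09%) and in 2.0001% of all. The ETS motif CCGGAAGT, read by GABPA, was in 5 (6.49%) and in 5.47% of all, and the SP1 motif GGGGCGGGG was in 13 (16.9%) and in 16.1% of all. The stretches below run from 100 bases before to 10 after the start (RefSeq, GRCm38.p6), with motif matches in capitals. The match in Uqcr11 at 66 bases before the start is the ETS motif and that at 5 bases is NRF1 on the other strand, the match in Cox8a is the ETS motif on the other strand, and in Ndufa11 a pair of overlapping NRF1 matches lies on opposite strands.
Uqcr11, chr10:80406812-80406921, minus strand: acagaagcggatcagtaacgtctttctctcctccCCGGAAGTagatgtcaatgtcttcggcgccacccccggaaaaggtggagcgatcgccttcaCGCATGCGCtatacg
Cox8a, chr19:7217607-7217716, minus strand: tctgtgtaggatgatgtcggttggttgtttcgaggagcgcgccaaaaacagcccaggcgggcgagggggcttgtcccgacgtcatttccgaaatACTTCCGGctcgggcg
Ndufa11, chr17:56717662-56717771, plus strand: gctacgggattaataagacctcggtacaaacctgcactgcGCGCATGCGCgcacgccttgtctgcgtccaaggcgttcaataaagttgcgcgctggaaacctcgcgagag
A match describes only the letters of the window. Uqcr11 and Ndufa11 both hold the NRF1 motif and differed in opposite directions between ML and basal cells. These genes were picked for their levels, and a link between motifs and class levels was not tested.

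Of the 13 mitochondrial genome genes, 6 carried nearly all UMIs. mt-Nd1, a complex I subunit, stood at 1851 CPM in basal, 1068 CPM in LP and 1509 CPM in ML cells and made up 54.1%, 53.3% and 50.7% of the mitochondrial UMIs. mt-Nd4, also of complex I, was at 669, 395 and 631 CPM, and mt-Cytb, the complex III subunit, at 652, 405 and 642 CPM. All 3 genes were lowest in LP cells. The ML minus basal interval included 0 for mt-Cytb (−0.11 to 0.06) and mt-Nd4 (−0.17 to 0.00), whereas it was −0.35 to −0.24 for mt-Nd1. mt-Nd2 was at 130, 64.9 and 94.4 CPM, mt-Co1 at 70.6, 47.3 and 64.4 CPM and mt-Nd5 at 49.3, 24.1 and 37.0 CPM, in the same order of classes.

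The other 7 genes, mt-Co2, mt-Co3, mt-Atp6, mt-Atp8, mt-Nd3, mt-Nd4l and mt-Nd6, had 0 or 1 UMI each in the whole total epithelium library. Apart from mt-Co1, no level can be given for the mitochondrially encoded subunits of complexes IV and V. In the GENCODE transcripts, mt-Co2, mt-Co3, mt-Atp6, mt-Nd3 and mt-Nd4l share at least 98.8% of the 50-base words of their last 300 bases with unprocessed pseudogenes that lie side by side on chromosome 1, and so does mt-Co1. Those pseudogenes were not among the deposited genes. The 6 sharing genes had a median of 0 UMIs, and mt-Co1 the most at 577. Yet mt-Atp8 and mt-Nd6 share no such word and were also at 0 and 1 UMI. The part of shared sequence in the low counts was not tested.

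The stretches below show this contrast. Each is 90 bases long, ends 10 bases before the end of the gene and lies on the plus strand of chrM (mm10). The mt-Co2 and mt-Co3 stretches differ at 0 of 90 bases from Gm28661 (chr1:24614885-24615565, minus strand) and Gm28437 (chr1:24613189-24613971, minus strand), whereas mt-Nd1 and mt-Cytb have no shared word in their last 300 bases.
mt-Co2, chrM:7597-7686: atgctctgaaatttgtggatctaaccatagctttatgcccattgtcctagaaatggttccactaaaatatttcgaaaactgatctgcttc
mt-Co3, chrM:9291-9380: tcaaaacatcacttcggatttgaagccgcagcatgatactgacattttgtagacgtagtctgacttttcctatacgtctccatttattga
mt-Nd1, chrM:3608-3697: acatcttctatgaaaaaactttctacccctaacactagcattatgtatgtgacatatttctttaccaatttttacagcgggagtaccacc
mt-Cytb, chrM:15189-15278: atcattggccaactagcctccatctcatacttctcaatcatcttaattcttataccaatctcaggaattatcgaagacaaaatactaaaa

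**Figure D3:**
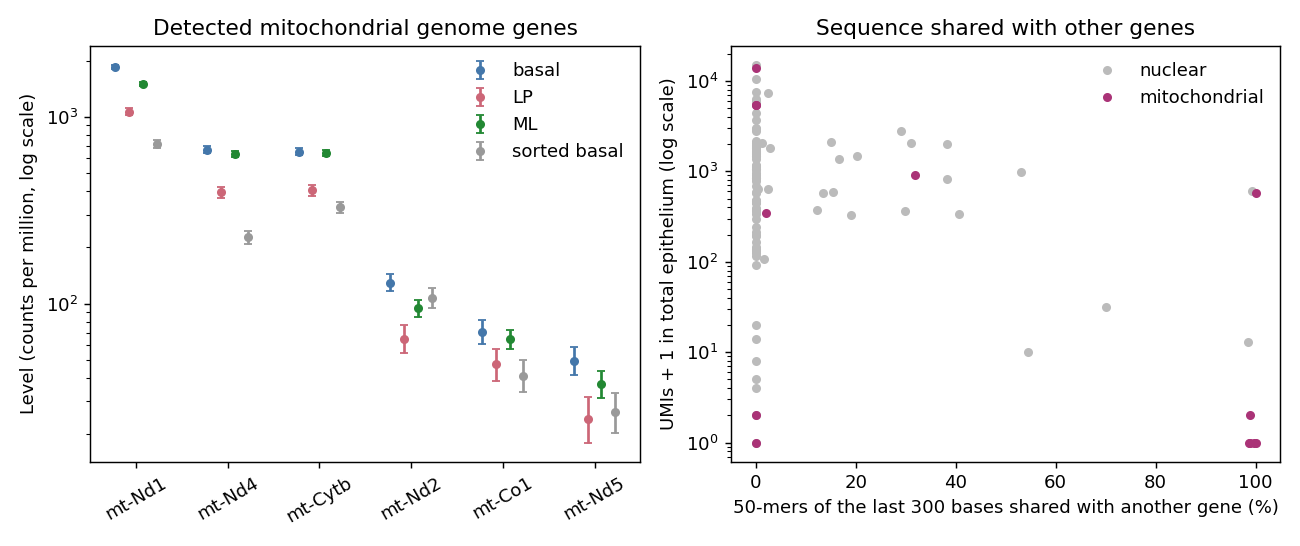
Left, level in CPM (log axis) of the 6 mitochondrial genome genes with more than 50 basal UMIs, with exact 95% Poisson intervals, in the 3 classes and the sorted basal library. Right, UMIs plus 1 in the total epithelium (log axis) of each member against the percentage of 50-base words of its last 300 bases that another annotated gene shares. LP lies below basal and ML in each of the 6 genes, and the mitochondrial genes with shares near 100% sit at 0 to 577 UMIs.

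Nuclear members shared 3′ sequence with other genes less often. Of the 93, 69 shared no word and had a median of 840 UMIs, 19 shared under 50% with a median of 824 UMIs, and 5 shared 50% or more. These 5 were Atp5g2 (12 UMIs), Ndufs5 (9 UMIs), Atp5l (31 UMIs), Cox7c (607 UMIs) and Ndufs3 (971 UMIs), and their levels are uncertain. Across the 106 members, 4 had no UMI in either library (mt-Atp8, mt-Nd3, mt-Nd4l and Cox7b2), and 11, these included, had fewer than 10 UMIs over both libraries.

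Single cells overlapped between classes. At 1000 UMIs a cell, the median cell held 13 nuclear OXPHOS UMIs in basal (middle 50% from 10 to 16, 1254 cells), 11 in LP (9 to 14, 725 cells) and 18 in ML (15 to 22, 1111 cells). The ML median was reached by 16.1% of basal and 11.4% of LP cells. Leaving out the shallower cells removed 52 basal, 41 LP and 22 ML cells. The spread of nuclear UMIs was modest, with a variance of 1.59 times the mean for basal, 1.87 times for LP and 1.52 times for ML cells, where counting alone gives a ratio of about 1.

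Mitochondrial genome UMIs varied more between cells of a class. Their variance was 3.003 times the mean for basal, 5.05 times for LP and 4.03 times for ML cells, around medians of 3, 2 and 2 UMIs. The highest cell held 48 of 1000, in ML. At full depth no cell of the total epithelium exceeded 4.87% mitochondrial UMIs, and none was found in 4.21% of the basal class, 7.18% of the LP class and 1.68% of the ML class.

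**Figure D4:**
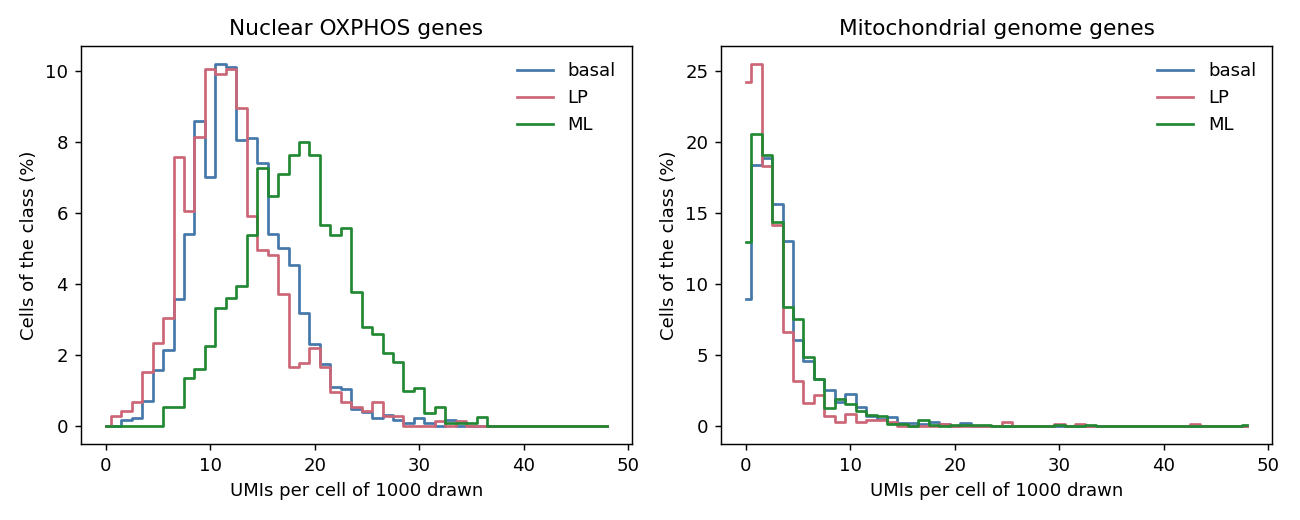
Share of the cells of each class (vertical axis, %) by the number of nuclear OXPHOS UMIs (left) and mitochondrial genome UMIs (right) among 1000 UMIs drawn per cell. ML cells centre on 18 nuclear UMIs, against 13 in basal and 11 in LP cells, while the mitochondrial curves lie low with a long tail to 48.

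The mitochondrial share moved with the depth of the cell inside the luminal classes. With the LP cells divided by depth into 4 equal groups, from fewest to most UMIs, the mitochondrial share was 0.416%, 0.211%, 0.182% and 0.153% of UMIs. In ML cells it was 0.465%, 0.312%, 0.261% and 0.263%, and in basal cells 0.379%, 0.342%, 0.375% and 0.310%. The nuclear share changed less, from 1.29% to 1.205% in LP, 1.90% to 1.77% in ML and 1.19% to 1.38% in basal cells. In all 4 depth groups the nuclear share was highest in ML cells. The groups were cut within each class, so groups of the same rank differ in depth. By rank, the mitochondrial share of LP and ML cells lay above basal cells in the shallowest group and below them in the others. At closer depths, ML groups with medians of 1923 and 2968 UMIs had 0.465% and 0.312%. Basal groups with medians of 2107.5 and 3228.5 UMIs had 0.375% and 0.310%. The LP group with a median of 2089 UMIs had 0.211%. Thus LP cells, but not ML cells, lay below basal cells in these groups. The shallowest LP and basal groups, with medians of 1261.5 and 1177 UMIs, were also close in depth. There the LP share of 0.416% lay above the basal share of 0.379%. The part of cell depth in the lower mitochondrial levels of LP and ML cells was not tested.

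Isoforms known from other tissues were nearly absent. Cox4i1, Cox6a1, Cox6b1, Cox7a2, Cox7a2l, Cox8a and Ndufa4 are the forms most cells use, and Cox6a1 stood at 153 CPM in basal, 151 CPM in LP and 245 CPM in ML cells. Cox7a2l, a factor of respiratory supercomplexes, stood at 626, 593 and 763 CPM, Cox7a2 at 69.2, 65.8 and 120 CPM and Ndufa4 at 162, 153 and 260 CPM. Their partners were rare in the total epithelium. Cox6b2, the testis form, had 19 UMIs, Cox4i2 had 7, Cox7a1 had 4, Cox8c had 1 and Cox7b2 had 0.

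Ndufa4l2, a hypoxia-linked relative of Ndufa4, was the exception among the basal cells. It stood at 23.4 CPM in basal, 1.39 CPM in LP and 0.242 CPM in ML cells, the last 2 resting on 3 and 1 UMIs. Its UMIs were concentrated in 25 of 1306 basal cells (1.91%). Of the 19 basal cells with 3 or more UMIs of pericyte markers (Rgs5, Pdgfrb, Notch3, Des and Mcam), 13 held Ndufa4l2 (68.4%, 43.4% to 87.4%), compared with 4 of the 1184 basal cells with none (0.338%). The share was 0.131% of LP and 0.0883% of ML cells. The list is not specific to pericytes in these cells. Of its 198 UMIs in the basal class, 110 were Mcam, 53 Des, 16 Notch3, 12 Pdgfrb and 7 Rgs5, and Notch3 was higher in ML (23.5 CPM) than in basal cells (5.76 CPM) and Des higher in LP (42.6 CPM) than in basal cells (19.1 CPM). With Rgs5 and Pdgfrb alone, a choice made after seeing the data, 6 of the 14 basal cells with a UMI of either held Ndufa4l2 (42.9%, 17.7% to 71.1%), compared with 19 of 1292 without (1.47%).

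Related pathways of the mitochondrion were read beside the members. The mitochondrial ribosome, which translates the mitochondrial genome, was also highest in ML cells, with 3709 CPM in basal, 3841 CPM in LP and 5532 CPM in ML cells over 77 genes. Of 64 tested, 36 were higher in ML than basal and 1 lower (28.5% and 24.9% of all genes), and 28 were higher in ML than LP and 1 lower (31.2% and 14.2%). Against basal cells, LP was higher in 10 and lower in 4 of 61 (16.5% and 29.5%). The same shares of all genes apply to the lists that follow.

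The citric acid cycle and pyruvate dehydrogenase genes had few members higher in ML than basal. They summed to 2620 CPM in basal, 2008 CPM in LP and 2751 CPM in ML cells, and 1 of 18 was higher and 3 lower in ML than basal. Against LP, 5 of 16 were higher in ML, a share at the background, and 1 lower. Between LP and basal, 0 of 17 were higher and 3 lower in LP, both shares under the background. The 1 gene that differed most was Pdk4, a kinase that shuts off pyruvate dehydrogenase, at 78.5 CPM in basal, 62.1 CPM in LP and 9.68 CPM in ML cells.

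Glycolysis genes summed to 6626 CPM in basal, 6752 CPM in LP and 5978 CPM in ML cells, and this order rested on the lactate dehydrogenase genes Ldha and Ldhb. Without them, a choice made after seeing the data, the sums were 4352, 4560 and 4816 CPM. Of 15 tested, 4 were higher in ML than basal, near the background, and 6 lower, and 2 were higher and 6 lower in ML than LP. Of 16, 2 were higher and 3 lower in LP than basal. Ldhb, a lactate dehydrogenase subunit, was at 526 CPM in basal, 284 CPM in LP and 37.5 CPM in ML cells, and Aldoc, an aldolase, at 61.2, 730 and 232 CPM. Pkm, pyruvate kinase, went the other way at 709, 585 and 1182 CPM.

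Carriers, import factors and porins summed to 9055 CPM in basal, 6479 CPM in LP and 8273 CPM in ML cells. Of 21 tested, 7 were higher and 2 lower in ML than basal, 7 higher and 1 lower in ML than LP, and 3 higher and 4 lower in LP than basal, so that the shares of higher genes lay near the background. Vdac1, the main porin, was at 239 CPM in basal, 289 CPM in LP and 556 CPM in ML cells. Slc25a4, the muscle-type ADP/ATP carrier, was at 1790, 503 and 589 CPM.

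Regulators of mitochondrial genes did not share the ML excess in their sum. They summed to 1046 CPM in basal, 541 CPM in LP and 431 CPM in ML cells. Of this, Myc gave 714, 307 and 132 CPM, which was most of the sum in basal and LP but not in ML cells. None of 9 tested was higher in ML than basal or in LP than basal, 3 were lower in each, and 1 of 6 was lower in ML than LP. That gene was Myc, and the other 5 had an ML minus LP log2 ratio above 0, as did 67.9% of all genes. The median of the 6 was 0.27, near the 0.30 of all genes. Tfam, which packages the mitochondrial genome and helps to start its transcription, was at 34.2, 24.1 and 35.3 CPM. Ppargc1a, a coactivator of mitochondrial biogenesis, had 0.720 CPM in basal, 1.39 CPM in LP and 1.21 CPM in ML cells, levels of 2 to 5 UMIs.

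The sorted basal library held less of both gene groups than the basal cells of the total epithelium. Nuclear OXPHOS genes summed to 8338 CPM (8225 to 8453) in the sorted library and to 13342 CPM in the unsorted basal cells, a log2 difference of −0.68 (−0.70 to −0.65). Mitochondrial genome genes were at 1450 CPM and 3422 CPM (−1.24, −1.29 to −1.18). The median of all genes moved the other way, by 0.40. Restricting the sorted library to the 1758 cells that met the basal rule gave −0.64 and −1.17. The sort, the library and its depth cannot be told apart here, with 487 and 1838.5 UMIs in the median cell and 60.3% of sorted cells without a mitochondrial UMI.

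The members did not shift together between the libraries. Of 71 nuclear members tested, 37 were lower in the sorted library and 7 higher, against 25.3% and 43.7% of all genes. Ndufa8 was at 171 CPM in the unsorted and 33.4 CPM in the sorted basal cells (−2.36, −2.71 to −2.02), and Cox4i1 was at 839 and 277 CPM. In contrast, Ndufs1 was at 76.7 and 172 CPM (1.16, 0.92 to 1.41), Sdha at 180 and 344 CPM and Atp5a1 at 922 and 1167 CPM. Within complex II, Sdha was thus higher in the sorted library while Sdhb (330 and 90.4 CPM), Sdhc (119 and 29.3 CPM) and Sdhd (187 and 52.2 CPM) were lower. The make-up of the mitochondrial UMIs differed as well, since mt-Nd2 was 3.79% (3.41% to 4.19%) of them in unsorted and 7.43% (6.59% to 8.33%) in sorted basal cells, and mt-Nd4 was 19.5% and 15.6%. The mitochondrial ribosome had 47 of 53 genes lower and 0 higher in the sorted library.

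**Figure D5:**
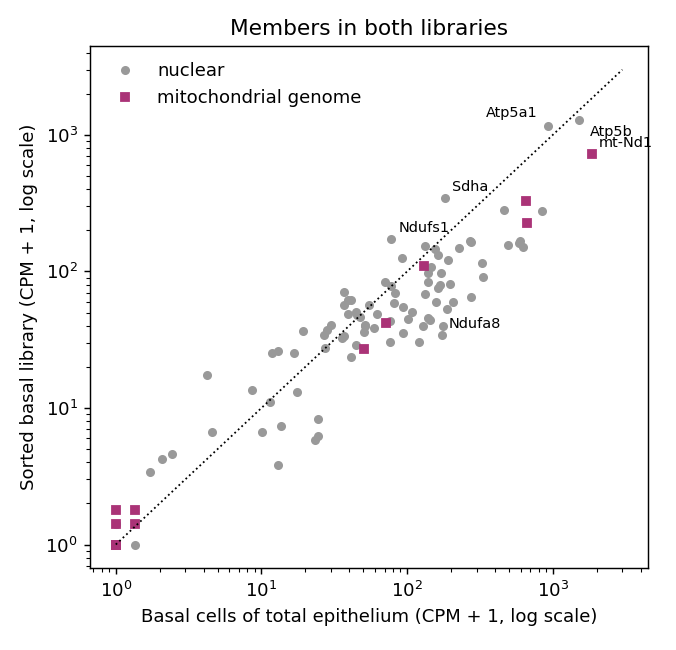
Level of each member in the sorted basal library against the basal cells of the total epithelium, as CPM plus 1 on log axes, with 1 point per gene and a dotted line of equal levels. Most points lie below the line, while Ndufs1 (76.7 against 172 CPM), Sdha and Atp5a1 lie above it.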

How the data were processed

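Single-cell RNA was captured on the 10X Chromium platform by its 3′ protocol, in 1 library of sorted basal cells and 1 of total epithelial cells. The authors deposited counts: whole numbers of UMIs per gene and cell, not normalized, after alignment to mm10 and cell calling with Cell Ranger, given as version 1.2.1 in the submitters' processing notes and as a later version in the study's methods. Such counting drops reads that match several genes equally well. The gene and barcode lists name the rows and columns. All deposited cells were used, with 137 to 1946 UMIs per sorted basal cell and 802 to 12967 per total epithelial cell. No doublet caller was run; cells of mixed rules and the deepest 5% were left out in an alternative.

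UMIs were summed per class and divided by the class total to give CPM. Totals were 2776233 (basal), 2158548 (LP), 4132895 (ML), 159975 (unclassed) and 2488704 (sorted basal), so 3 counts equal 1.08, 1.39, 0.726, 18.8 and 1.21 CPM. Intervals are 95% exact Poisson intervals for levels, exact conditional binomial intervals for log2 ratios and Clopper-Pearson intervals for shares. With 1 library per group no test was possible, so a gene past a fold of 1.5 with a mean of 20 CPM or more over the pair was counted, beside the same share of all genes. The counting script was tested on simulated data.

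Genes named in the text were, in each pair of classes, the 8 nuclear members with a mean of 50 CPM or more whose interval lay farthest from 0, the highest member of each complex, tissue isoform pairs, Cycs, the Sdh genes and the mitochondrial genes with 10 or more UMIs. One gene that this rule names is not reported here. Other genes in the text, such as Ndufa8, Atp5c1, Ndufaf3 and Ndufaf4, and examples from the pathway lists were chosen after their values were seen. The members, classes, pathway lists and marker lists were chosen with earlier results of these data known. Positions and transcripts are from GENCODE M21 (GRCm38, the assembly also called mm10). Alternatives covered scaling (TMM from edgeR 4.0.16, median of gene ratios, totals without ribosomal, mitochondrial and class genes), weight of cells, thresholds, filters and genes with copies. Python 3.11.15, numpy 2.4.6, scipy 1.17.1, pandas 2.3.3 and matplotlib 3.10.9 were used.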

Additional observations from a re-analysis of the deposited data

Results flagged for a closer look

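Both results below lie in the 97 unclassed cells, which the comparisons of classes did not use. Cox6a2, the heart and skeletal muscle form of a complex IV subunit, stood at 81.3 CPM there, from 13 UMIs in 6 cells, against 0 UMIs in the basal, LP and ML cells. The same 6 cells held 470 to 2134 UMIs each of the muscle genes Acta1, Ckm, Tnnc2 and Mylpf, which were chosen after their values were seen, and 3 of them held Cox8b, another muscle form, while none held a UMI of Cox6a1 or Cox8a. Nuclear OXPHOS genes made up 2.91% of their 29162 UMIs, above the 1.83% of ML cells, whereas the mitochondrial genome gave 2 UMIs (0.00686%). Ndufa4l2 stood at 294 CPM in the unclassed cells, from 47 UMIs in 16 cells, compared with 23.4 CPM in basal cells. It was found in 10 of the 20 unclassed cells with 3 or more UMIs of the pericyte list (50%, 27.2% to 72.8%) and in 2 of the 62 with none (3.23%). That list includes Des, which muscle cells also express.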

How the results depend on the processing

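Of the 130 values recomputed under an alternative, 71 moved by no more than their own error or stayed within 1.5 times the count, 54 moved further and 5 changed sign. The summed glycolysis difference without Ldha and Ldhb became 0.146 for ML minus basal and 0.0787 for ML minus LP. The other 3 were the summed nuclear log2 difference of LP minus basal, which became 0.0653 with the median of gene ratios, 0.0314 with TMM and 0.00836 with class thresholds doubled, and was −0.0822 with cells weighted equally. For the mitochondrial genome, LP minus basal was −0.57 with the median of gene ratios, −0.61 with TMM, −0.52 with cells weighted equally and −0.55 with thresholds doubled. The nuclear ML minus basal difference was 0.43 with the median of gene ratios, 0.44 with TMM, 0.51 with totals that leave out ribosomal, mitochondrial and class genes, 0.51 with cells weighted equally, 0.49 without cells of both rules and the deepest 5%, and 0.43 without members that share 3′ sequence. The nuclear ML minus LP difference was 0.37, 0.41 and 0.65 under the first 3 of these and 0.46 with thresholds doubled. The mitochondrial ML minus LP difference was 0.34 with the median of gene ratios, 0.38 with TMM, 0.63 with the reduced totals, 0.45 with cells weighted equally and 0.31 with thresholds doubled. The mitochondrial ML minus basal difference was −0.15 with the reduced totals, −0.0747 with cells weighted equally and −0.25 without basal cells that hold luminal keratins, the last chosen after seeing the data, as were the settings on fibroblast UMIs, shared 3′ sequence, Ldha and Ldhb, and Rgs5 and Pdgfrb.

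Counts moved with the scaling, the thresholds, the filter and the fold. Nuclear members higher in LP than basal numbered 4 with the median of gene ratios, TMM or thresholds doubled, 2 with cells weighted equally, without the deepest 5% or with no filter on low values, and 1 without basal cells that hold luminal keratins. Those lower in LP numbered 2 with the median of gene ratios, 3 with TMM, 4 with thresholds doubled, 14 with no filter and 0 at a fold of 2. Members higher in ML than LP numbered 18 with the median of gene ratios, 23 with TMM, 25 with thresholds doubled and 9 at a fold of 2, and those lower numbered 3 with no filter. Members higher in ML than basal numbered 9 at a fold of 2, and those lower numbered 5 with no filter and 0 at a fold of 2. For the sorted library minus basal cells, the nuclear difference was −0.64 with sorted cells that met the basal rule and −0.77 with the reduced totals, and the mitochondrial one −1.17 and −1.33. The nuclear sum was also measured from the median of all genes. With cells weighted equally, left out or classed by doubled thresholds, ML lay above basal by 0.36 to 0.39. Under these settings ML lay above LP by 0.23 to 0.31. A change of scaling alters this measure only through the filter of 20 CPM, and ML minus LP was 0.31 with TMM. Apart from the settings' own construction, the cause of these shifts was not tested. No paired analysis was possible because each group is 1 library.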
